A study of Homo sapiens with 20 samples.

Results

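The genes described here encode the coat of clathrin-coated vesicles at the plasma membrane. They were chosen by symbol, with no measured value in the rule: the clathrin chains CLTA, CLTB and CLTC, the subunits AP2A1, AP2A2, AP2B1, AP2M1 and AP2S1 of the adaptor complex AP2, and the assembly factor PICALM. They make 9 of the 58787 genes in the table, each with a single row, and all 9 passed the filter on low counts that left 13729 genes for testing. The cells were IMR-32, an established neuroblastoma line of human origin with an amplified MYCN oncogene, and all groups were treated for 24 h. The 5 groups of 4 libraries received DMSO as vehicle, a low dose (1 µM) or a high dose (2.26 µM) of Dyngo-4a, 2 nM prexasertib, or Dyngo-4a and prexasertib together (the combination, at doses not given in the sources used here). The titles of the high-dose samples carry the label IC50, without naming the effect it was measured on. Dyngo-4a inhibits dynamin, the GTPase that cuts coated vesicles from the membrane, and prexasertib inhibits the checkpoint kinase CHK1. All libraries are of 1 cell line, and nothing states that the replicates were separate cultures; the p-values therefore reflect the spread between libraries alone, which may be technical.

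In clathrin-mediated endocytosis, AP2 binds the plasma membrane and the sorting signals of cargo receptors and recruits clathrin. Clathrin assembles from trimers of the heavy chain CLTC, each heavy chain carrying a light chain, CLTA or CLTB. AP2 holds a large alpha subunit (AP2A1 or AP2A2), the large beta subunit AP2B1, the medium subunit AP2M1 and the small subunit AP2S1. PICALM binds clathrin and membrane lipid and is known for setting the size of the coated vesicle. In neurons the same route also retrieves synaptic vesicle membrane.

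Each library was a 3′ library, in which counts are taken near the end of a transcript and do not grow with its length, so counts scaled to a common library total (CPM) were compared between genes as they stand. Libraries held 3960885 to 6537843 counts. The neuroblast character named by the cell line was checked on 12 adrenergic markers, of which 11 were tested; the list summed to 5740 ± 246 CPM in DMSO, and only TH was near 0, with a median of 0.963 CPM. SOX10 of Schwann cells, CD3E of T cells and KRT5 and KRT18 of epithelium had no count in any library, while the sum of 9 mesenchymal markers lay between 290 and 393 CPM, most of it TWIST1 (median 272 CPM). In every group replicates 1 and 3 stood apart from replicates 2 and 4 on the second principal component, which held 11.9% of the variance. All samples carry the same batch label, so this split is named here by its replicate numbers alone.

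The promoters of the clathrin genes that fell are shown first, with that of AP2B1, which shares a motif with CLTB and was called in no comparison. The sequences are 300-base windows around the start sites annotated by RefSeq on GRCh38.p14, printed 5′ to 3′ on the strand of the gene. Capitals mark matches, on either strand, to the searched motifs GGGCGG (the GC box) and TGACGTCA (the cAMP response element). The CLTC window is chr17:59619645-59619944 on the plus strand, the first of 3 CLTB windows is chr5:176416520-176416819 on the minus strand, and the AP2B1 window is chr17:35587072-35587371 on the plus strand.
CLTC: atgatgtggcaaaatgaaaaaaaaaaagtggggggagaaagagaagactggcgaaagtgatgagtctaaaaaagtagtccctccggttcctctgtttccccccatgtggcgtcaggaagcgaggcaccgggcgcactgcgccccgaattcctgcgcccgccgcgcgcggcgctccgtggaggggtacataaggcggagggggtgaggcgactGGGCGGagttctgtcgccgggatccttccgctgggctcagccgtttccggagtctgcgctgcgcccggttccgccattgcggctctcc
CLTB: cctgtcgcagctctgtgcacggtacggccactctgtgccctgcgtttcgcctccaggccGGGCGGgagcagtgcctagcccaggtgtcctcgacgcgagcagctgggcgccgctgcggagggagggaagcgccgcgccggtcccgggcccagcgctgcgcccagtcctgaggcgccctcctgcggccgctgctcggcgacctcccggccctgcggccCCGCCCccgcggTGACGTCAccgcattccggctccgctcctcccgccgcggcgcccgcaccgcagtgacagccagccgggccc
AP2B1: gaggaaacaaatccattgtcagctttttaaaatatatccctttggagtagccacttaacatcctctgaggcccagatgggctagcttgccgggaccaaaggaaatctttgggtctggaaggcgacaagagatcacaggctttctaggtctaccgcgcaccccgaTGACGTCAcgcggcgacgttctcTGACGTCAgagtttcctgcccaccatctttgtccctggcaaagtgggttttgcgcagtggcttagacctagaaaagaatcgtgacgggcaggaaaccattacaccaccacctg

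The CLTC window held a single match, a GC box at position -38 from the start site. CLTB held the cAMP response element at position -21 in the window shown, and AP2B1 held this element in 2 copies and no GC box. Over the 9 genes, 7 had a GC box, against 45% of all 35116 promoter windows of the same length in the table, and 2 had TGACGTCA, against 1.85%. CCAAT (the NF-Y motif) was present in 4 genes and in 34.6% of all windows. The E-box CACGTG, held by 7.26% of all windows, was found only in PICALM, within TCACGTGA (0.98% of all windows), which contains it; TGATGNAA (an element of ATF4 and C/EBP, 3.62%) was likewise found in PICALM, and GCGCATGC (the NRF1 motif, 3.05%) in none of the 9. These matches are letters in a window, not measured binding, and the genes with several windows, CLTB and PICALM, had more chances to match.

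In DMSO the coat genes differed widely in level. CLTC, at chr17:59619689-59696956 on the plus strand (GRCh38, GENCODE coordinates throughout), was the most abundant at 515 ± 30.2 CPM (SD, n = 4), above 97.9% of tested genes. AP2B1 followed at 290 ± 17.2 CPM, then AP2M1 at 163 ± 17, CLTA at 154 ± 6.48 and PICALM at 134 ± 9.28. AP2S1 at 56.7 ± 4.63, CLTB at 55.5 ± 10 and AP2A2 at 46.4 ± 5.95 CPM came next, and AP2A1 was lowest at 14.6 ± 1.15, above 41.2% of tested genes. Neighbours in this order whose libraries overlapped were AP2M1 and CLTA, CLTA and PICALM, AP2S1 and CLTB, and CLTB and AP2A2. Counts behind these levels were fewest for AP2A1, with 52 to 110 counts per library, and most for CLTC, with 1712 to 3289.

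**Figure D1:**
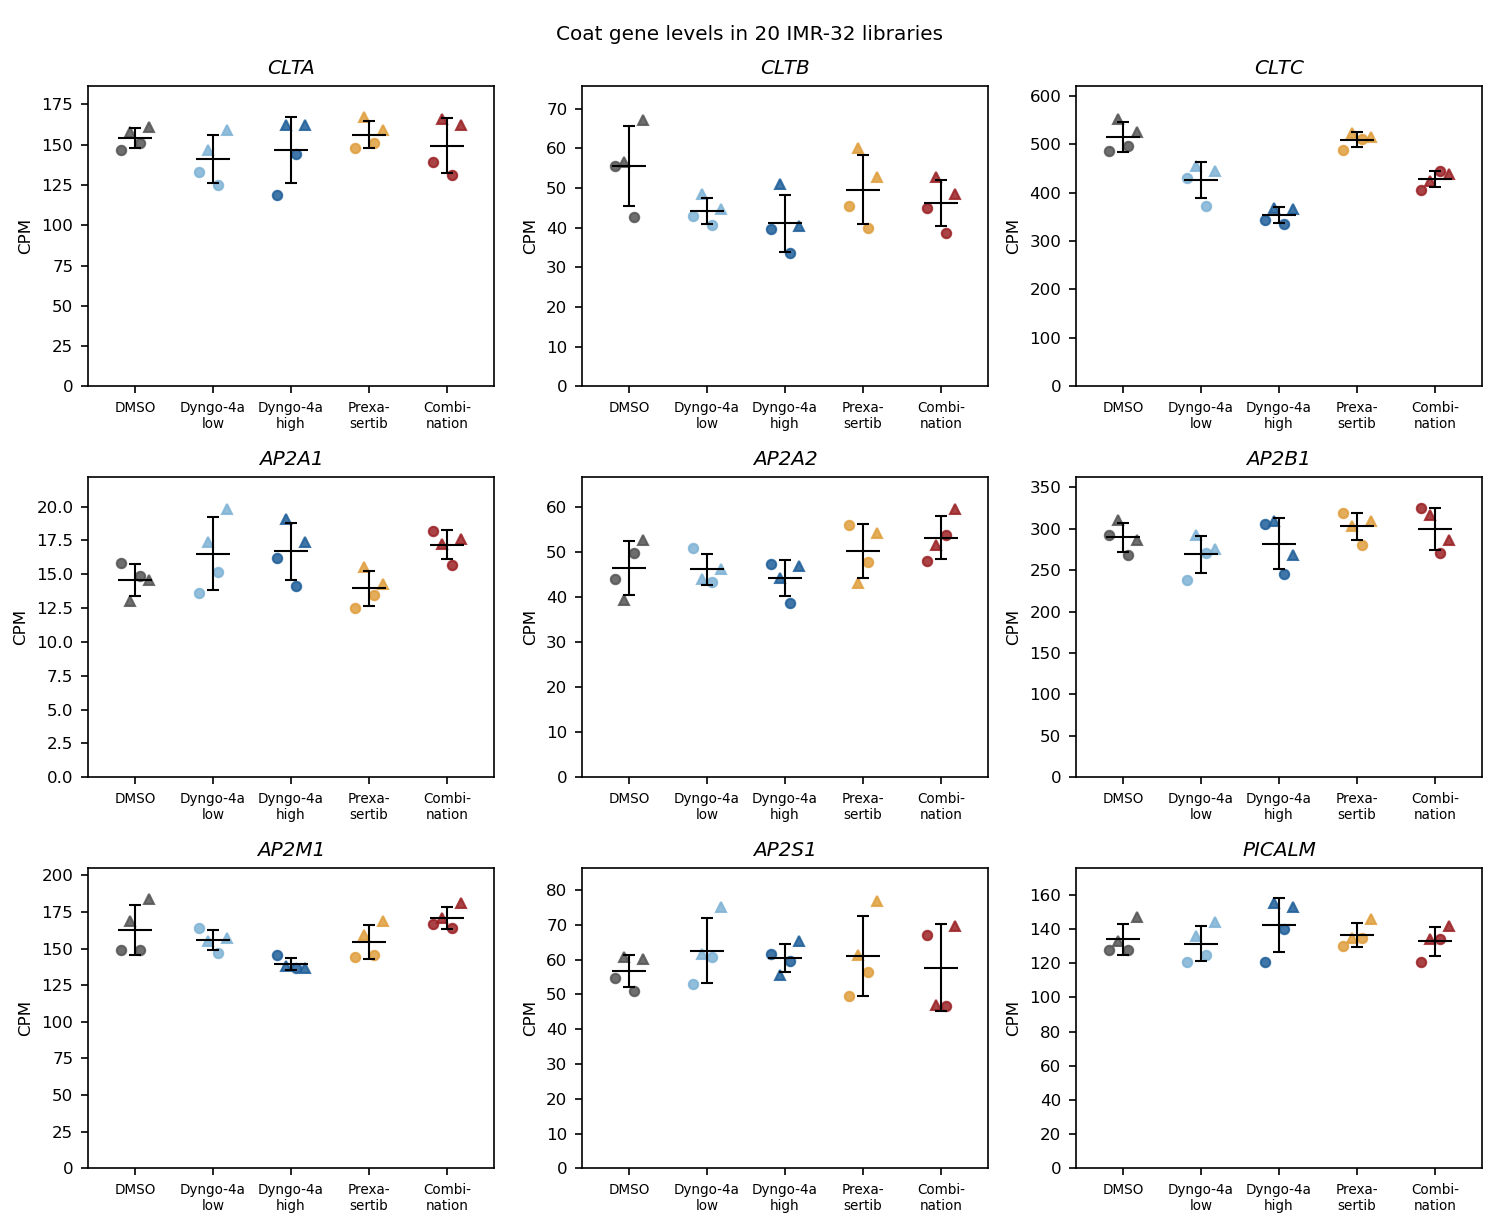
Level of each coat gene in CPM (vertical axis, from 0) in the 20 libraries by group. Circles are replicates 1 and 3, triangles replicates 2 and 4, and black bars the mean with the SD of 4 libraries; CLTC lies between 336 and 369 CPM at the high dose and between 485 and 553 CPM in DMSO.

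The heavy chain CLTC fell at the high dose of Dyngo-4a. It measured 485, 553, 497 and 525 CPM in DMSO replicates 1 to 4 and 343, 369, 336 and 366 CPM at the high dose. The high-dose libraries all lay below the DMSO libraries, with no overlap, as was so for 23.3% of all genes in this comparison. Of all genes 12.7% were called lower there. The log2 fold change was -0.54 ± 0.08 (SE; 95% interval -0.71 to -0.38; adjusted p = 4.57e-06), a level 0.686 times that of DMSO; CLTC ranked 289 by p among the 13729 genes. The fall was -0.53 within replicates 1 and 3 and -0.57 within replicates 2 and 4. PTRH2, which lies antisense to the 3′ end of CLTC, changed by -0.23 on the log2 scale (adjusted p = 0.133) at this dose. With a strand setting not given in the sources used here, reads of a gene and its antisense neighbour may not be separated.

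At the low dose CLTC measured 431, 456, 373 and 444 CPM, a mean of 426 ± 36.8. All 4 libraries were below the lowest DMSO library, and the log2 fold change was -0.27 ± 0.08, but the adjusted p was 0.261 in a comparison where 0.262% of all genes were called. CLTC was called at the low dose under 3 of 19 alternatives. DESeq2 gave an adjusted p of 0.0238, with 53 genes called in all. A term for replicates 1 and 3 against 2 and 4 gave 0.0399, with 73 genes called. With a replicate block CLTC had an adjusted p of 0.00637, in a fit that called 260 of the 13729 genes. Nothing states that replicate numbers pair the libraries. Same-numbered libraries also share the split of replicates 1 and 3 against 2 and 4, so a correlation between them does not show such pairing. Groups that did not overlap made up 4.62% of all genes in that comparison. Between the high and the low dose the log2 difference of CLTC was -0.27 ± 0.08 (adjusted p = 0.0167), and it was the only coat gene called there, where 10.1% of all genes were called lower. These groups did not overlap either, as was so for 21% of all genes. This last call was lost within replicates 1 and 3 (-0.23, adjusted p = 0.125) and within replicates 2 and 4 (-0.31, adjusted p = 0.0665), and on leaving out low-dose replicate 2 or 4 or high-dose replicate 3.

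CLTB, the light chain of lower level, was also called lower at the high dose. CLTB lies at chr5:176392455-176416569 on the minus strand. Its DMSO libraries measured 55.6, 56.7, 42.7 and 67.2 CPM and its high-dose libraries 39.6, 51, 33.6 and 40.4 CPM. The groups overlapped, since DMSO replicate 3 was below high-dose replicate 2, and replicate 3 was the lowest in all 5 groups. The log2 fold change was -0.44 ± 0.14 (adjusted p = 0.0162), with -0.42 within replicates 1 and 3 (adjusted p = 0.0597) and -0.46 within replicates 2 and 4 (adjusted p = 0.0482). Without DMSO replicate 4 the adjusted p was 0.108, and without high-dose replicate 3 it was 0.082. ARL10, which is antisense to the 3′ end of CLTB and had more counts in all (8869 against 5009), had a log2 fold change of -0.37 (adjusted p = 0.0206), and its part in the CLTB value was not tested. At the low dose CLTB changed by -0.33 ± 0.14 (adjusted p = 0.527).

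CLTA, the other light chain, at chr9:36190856-36304781 on the plus strand, passed no test. It measured 147, 158, 151 and 161 CPM in DMSO and 119, 162, 144 and 162 CPM at the high dose, and the groups overlapped. The log2 difference was -0.07 with a 95% interval from -0.27 to 0.13. CLTA, CLTB and PICALM were the coat genes that differed between replicates 2 and 4 and replicates 1 and 3, being higher in the former by 0.21 (adjusted p = 0.00149), 0.30 (adjusted p = 0.00132) and 0.15 (adjusted p = 0.0194) on the log2 scale, where 19.1% of all genes were called. The split is balanced over the groups, so it widens the spread within each of them.

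Of the 9 coat genes, 2 were called lower and none higher at the high dose, in a comparison where 12.7% of all genes were called lower and 12.5% higher. Beside these shares the count of 2 is not read as a result about the coat genes as a group. Their median log2 fold change was -0.07, beside 0.00 over all tested genes. MALAT1, a nuclear noncoding RNA, took 2.96% ± 0.157 of counts at the high dose and 2.33% ± 0.538 in the combination, against 1.35% ± 0.417 in DMSO; its part in these results was not tested. In bulk libraries fewer cells of a kind and less RNA per cell cannot be told apart.

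No AP2 subunit was called by edgeR or limma-voom at the high dose, while DESeq2 called AP2M1 lower (adjusted p = 0.0267). The medium subunit AP2M1, which reads tyrosine-based sorting signals and lies at chr3:184174689-184184091 on the plus strand, had the smallest p of the 5. It measured 149, 169, 149 and 184 CPM in DMSO and 146, 138, 137 and 137 CPM at the high dose. The groups did not overlap, as was so for 23.3% of all genes in this comparison, and the log2 fold change was -0.22 ± 0.09 (adjusted p = 0.054). Within replicates 1 and 3 it was -0.07 (adjusted p = 0.735) and within replicates 2 and 4 it was -0.37 (adjusted p = 0.0269). Without DMSO replicate 1 or 3 the adjusted p was 0.0396 or 0.0397.

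The beta subunit AP2B1, which binds clathrin, lies at chr17:35578046-35726409 on the plus strand. It measured 293, 311, 269 and 286 CPM in DMSO and 306, 309, 245 and 268 CPM at the high dose, with overlap and a log2 difference of -0.04 (95% interval -0.22 to 0.14). Its 3′ end lies within TAF15, on the same strand, so reads there could be split or dropped by the counting. The alpha subunits differed in level, AP2A2 (chr11:924894-1012245, plus strand) being above AP2A1 (chr19:49766968-49807113, plus strand) in every DMSO library. At the high dose AP2A2 measured 47.3, 44.3, 38.6 and 46.9 CPM, within the DMSO range of 39.4 to 52.7 but for replicate 3, and its log2 difference was -0.07 (95% interval -0.31 to 0.16). AP2A1 measured 16.2, 19.1, 14.1 and 17.4 CPM at the high dose against 15.8, 13, 14.9 and 14.6 in DMSO, a log2 difference of 0.19 with the wider interval of -0.13 to 0.51. FUZ, which is antisense to the 3′ end of AP2A1, had more counts in all (4126 against 1663). Its part in the AP2A1 values and ratios was not tested.

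The small subunit AP2S1, part of the AP2 core, at chr19:46838136-46850992 on the minus strand, measured 54.8, 60.7, 51 and 60.2 CPM in DMSO. At the high dose it measured 61.5, 55.5, 59.5 and 65.3 CPM, a log2 difference of 0.09 (95% interval -0.18 to 0.36). PICALM, at chr11:85957684-86069882 on the minus strand, measured 128, 133, 128 and 147 CPM in DMSO and 121, 155, 140 and 153 CPM at the high dose. Its log2 difference was 0.09 (95% interval -0.10 to 0.27), so neither gene was called and the libraries of both groups overlapped. The 95% intervals of all 7 coat genes not called at the high dose leave out a fall as large as that fitted for CLTC, -0.54, but no test compared the genes with one another.

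**Figure D2:**
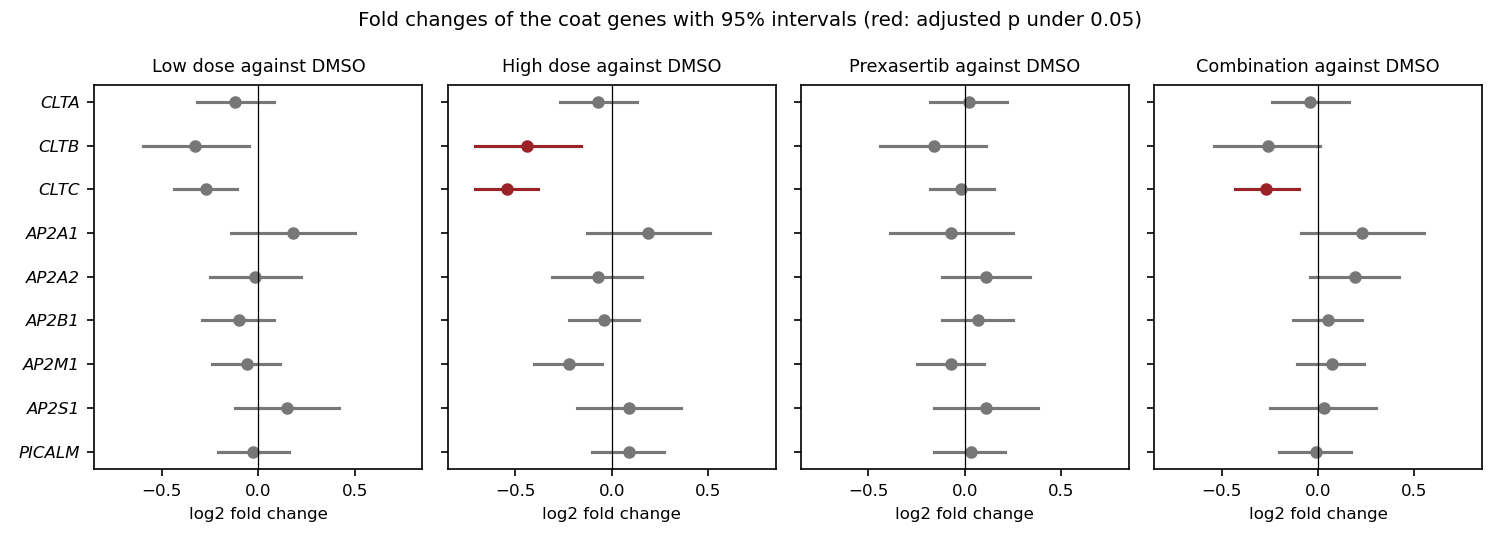
Log2 fold change against DMSO (horizontal axis) of the 9 coat genes in 4 comparisons, with points for the estimate and lines for the 95% interval. Red marks an adjusted p under 0.05, which holds for CLTC and CLTB at the high dose and for CLTC in the combination; the 4 comparisons share the same DMSO libraries.

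Prexasertib alone left every coat gene uncalled. CLTC measured 489, 524, 510 and 515 CPM, inside the DMSO range, with a log2 difference of -0.02 (95% interval -0.18 to 0.15). The log2 differences of the 9 genes ran from -0.16 for CLTB to 0.11 for AP2A2 and AP2S1, and all adjusted p-values were 1. In this comparison edgeR called 0% of all genes, DESeq2 called 6 and limma-voom 0, while 518 had an unadjusted p under 0.05; none of these 518 was a coat gene.

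In the combination CLTC measured 406, 424, 445 and 438 CPM. All 4 libraries were below the DMSO libraries and above the high-dose libraries. Against DMSO the log2 fold change was -0.27 ± 0.08 (adjusted p = 0.0429), where 2.83% of all genes were called lower and 10.9% of genes had groups that did not overlap. This call was kept under 7 of 19 alternatives, with adjusted p up to 0.213 over all 19; it was lost on leaving out any 1 of the combination libraries or DMSO replicate 2, 3 or 4. Within replicates 1 and 3 the log2 fold change was -0.21 and within replicates 2 and 4 it was -0.33, neither called. CLTB measured 45.1, 52.7, 38.8 and 48.4 CPM in the combination (-0.26 ± 0.14, adjusted p = 0.285), and no other coat gene passed the test.

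The other 7 coat genes were not called against DMSO at the low dose, with prexasertib or in the combination. CLTA measured 141 ± 14.9 CPM at the low dose, 156 ± 8.65 under prexasertib and 150 ± 17 in the combination, and PICALM 132 ± 10.8, 136 ± 6.5 and 133 ± 8.94 CPM. AP2B1 measured 269 ± 22.4, 303 ± 16.3 and 300 ± 25.5 CPM in the same order, and AP2M1 156 ± 6.75, 155 ± 11.6 and 171 ± 7.53 CPM. AP2S1, at 62.6 ± 9.29, 61.1 ± 11.6 and 57.7 ± 12.6 CPM, had libraries from 46.8 to 76.9 CPM, and its lowest and highest values lay in the combination and in prexasertib. AP2A2 was at 46.1 ± 3.46, 50.2 ± 5.9 and 53.2 ± 4.84 CPM and AP2A1 at 16.5 ± 2.69, 13.9 ± 1.26 and 17.2 ± 1.08 CPM. In the combination the log2 differences from DMSO of these 7 genes ran from -0.04 for CLTA to 0.23 for AP2A1 (95% interval -0.09 to 0.55), and for each of them the libraries overlapped those of DMSO.

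Against the single agents, the combination was close to the low dose in CLTC, with a log2 difference of 0.01 (95% interval -0.16 to 0.17); no coat gene was called in that comparison, where 3.85% of all genes were. Against prexasertib the log2 difference of CLTC was -0.25 ± 0.08 (adjusted p = 0.0808), where 3.44% of all genes were called. CLTC was called there under 4 of 19 alternatives. With the replicate block, which called 1374 of the 13729 genes, the adjusted p was 0.00387. DESeq2 gave 0.0118, a term for replicates 1 and 3 against 2 and 4 gave 0.016, and library sizes alone gave 0.0476. Against the high dose CLTC was higher by 0.28 ± 0.08 (adjusted p = 0.0139) and AP2M1 by 0.29 ± 0.09 (adjusted p = 0.0137), 2 of 9 genes where 10.4% of all genes were called higher. The AP2M1 libraries of the combination, at 167, 171, 164 and 181 CPM, all lay above those of the high dose; such separation was found for 20.7% of all genes. Its call was lost without combination replicate 4 (adjusted p = 0.0596) and within replicates 1 and 3 (adjusted p = 0.18), and that of CLTC within replicates 2 and 4 (adjusted p = 0.163). With the replicate block, which called 4002 of the 13729 genes in either direction, AP2A2 was also called higher in this comparison (0.27, adjusted p = 0.0367, against 0.0953 without the block). Since the doses of the combination are not given, these differences cannot be assigned to prexasertib at a fixed dose of Dyngo-4a.

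The interaction term compared the step from prexasertib to the combination with the step from DMSO to the low dose. It measures an interaction only if the combination held the same doses as these single agents, and the doses of the combination are not given. For CLTC the term was 0.02 on the log2 scale, with a 95% interval from -0.21 to 0.26. No coat gene was called, among 0.284% of all genes, and none had an unadjusted p under 0.05; DESeq2 and limma-voom called none of the 9 either. The largest terms were 0.23 for CLTB (95% interval -0.16 to 0.62) and -0.23 for AP2S1 (95% interval -0.62 to 0.15).

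The balance of subunits was followed as ratios of counts within a library, which need no scaling between libraries. The ratio of heavy to light chain counts, CLTC over the sum of CLTA and CLTB, was 2.4, 2.58, 2.57 and 2.3 in DMSO and 2.16, 1.73, 1.89 and 1.81 at the high dose. The groups did not overlap. The log2 difference was -0.38 with an exact two-sided permutation p of 0.0286, the smallest that 4 against 4 libraries can give, and 0.171 after adjustment over the 6 ratio tests. In the combination this ratio ran from 1.94 to 2.61, overlapping DMSO, with a log2 difference of -0.16 (exact permutation p = 0.171, adjusted 0.206). The ratio of CLTA to CLTB had a geometric mean of 2.8 in DMSO and 3.57 at the high dose (exact permutation p = 0.114, adjusted 0.206). The ratio of AP2A1 to AP2A2 was 0.317 in DMSO and 0.377 at the high dose (exact permutation p = 0.0571, adjusted 0.171). No ratio passed after adjustment. A ratio that alone reaches the smallest possible p cannot pass over 6 tests, so this outcome leaves the balance of subunits undecided.

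**Figure D3:**
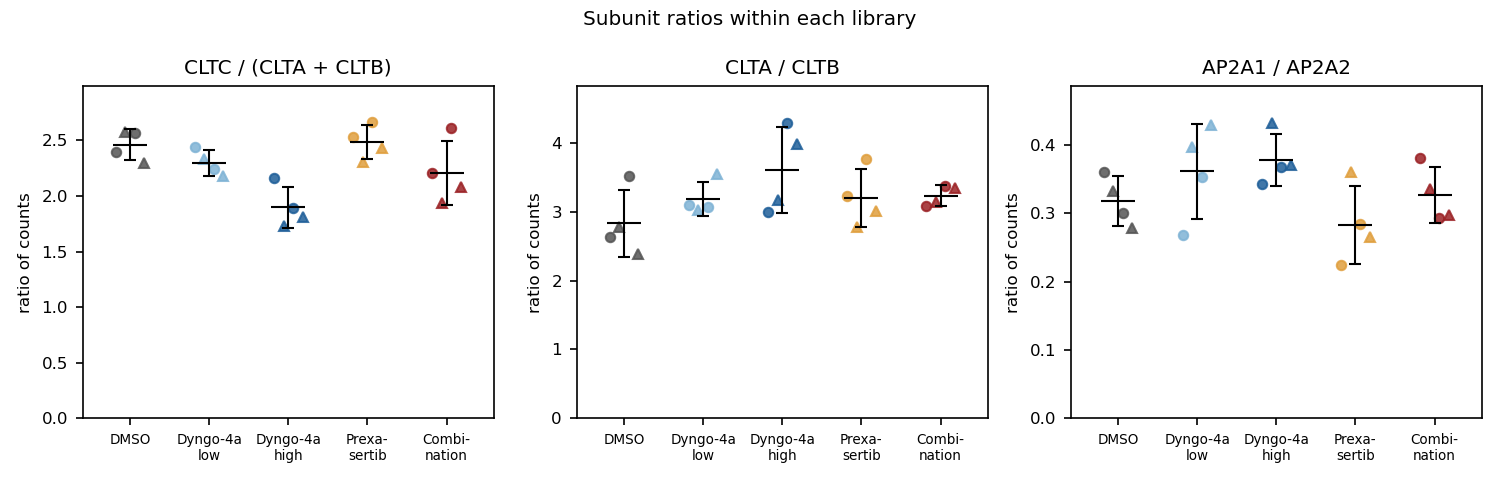
Ratio of counts within each library (vertical axis, from 0) for heavy to light clathrin chains, for both light chains and for both AP2 alpha subunits, by group. Circles are replicates 1 and 3, triangles replicates 2 and 4, and black bars the mean with the SD of 4 libraries; the heavy to light ratio lies between 1.73 and 2.16 at the high dose and between 2.3 and 2.58 in DMSO.

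Summed over its 3 genes, clathrin measured 725 ± 41.5 CPM in DMSO, 612 ± 52.3 with the low and 541 ± 39.3 with the high dose of Dyngo-4a, 715 ± 30 with prexasertib and 624 ± 26.7 in the combination. The sum of the 5 AP2 genes was 570 ± 30.4, 550 ± 26.3, 543 ± 36.9, 583 ± 32.3 and 599 ± 32.9 CPM in the same order. The clathrin sum at the high dose, at most 581 CPM, lay below the lowest DMSO library of 688, while the AP2 sums of these groups overlapped. CLTC makes up most of the clathrin sum, so the sum is not a separate measurement.

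Over the 20 libraries the log2 levels of CLTA and PICALM had the highest Pearson correlation of the 36 pairs of coat genes, 0.71, and 0.81 for deviations from the group means. CLTB and CLTC had 0.64, and 0.42 for deviations from the group means. CLTC and AP2A1 had the lowest over the 20 libraries at -0.43, but 0.25 for deviations from the group means. The tested genes most like CLTC were GCLM (0.96), CACYBP (0.95) and PSMD11 (0.94), and those most like CLTB were TRMT112 (0.89), MORF4L1 (0.88) and TBCB (0.87). These correlations describe libraries that share groups, scaling and the replicate split.

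Other genes of the route were counted over 7 lists of 117 genes, of which 111 were tested. At the high dose 21 were called higher and 7 lower, where 12.5% of all tested genes were called higher and 12.7% lower. The counts by list that follow stand beside these shares, are small, and were not tested against them. Among initiators and scaffolds, which gather at a forming pit, 4 of 12 rose: SGIP1 (0.83 ± 0.23 on the log2 scale), ITSN2 (0.70 ± 0.18), NECAP1 (0.55 ± 0.17) and EPS15L1 (0.44 ± 0.12). Among cargo adaptors 3 of 14 rose and 1 fell, the fall being that of ARRB1, a beta-arrestin (log2 fold change -1.09 ± 0.24), from 9.79 to 4.63 CPM. The 3 that rose were all of low level and are named after their values were seen: SNAP91, the neuronal relative of PICALM, rose by 1.06 (adjusted p = 0.00535), and the stonins STON1 and STON2 by 0.84 and 0.98. PICALM itself differed by 0.09 and was not called.

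HSPA8, the chaperone that strips clathrin from vesicles, fell from 340 ± 23.4 to 185 ± 12 CPM at the high dose (log2 fold change -0.87 ± 0.11, adjusted p = 2.41e-07). In the same list of 14 uncoating, lipid and kinase regulators SYNJ1, a phosphatase of membrane lipids that acts in uncoating, rose by 0.54 ± 0.20, and 12 were not called. Of the 14 dynamins and partners that bend membrane 5 rose and none fell, beside 12.5% of all genes called higher and 12.7% lower, with AMPH at 0.79 ± 0.15, SNX18 at 0.66 ± 0.14, BIN1 at 0.49 ± 0.12 and FNBP1 at 0.46 ± 0.10. The dynamin genes themselves were not called, with log2 differences of 0.04 for DNM1, 0.24 for DNM2 (adjusted p = 0.0803) and 0.39 for DNM3. Of 12 receptors carried by clathrin coats 6 rose and 1 fell, beside the same shares of all genes: the lipoprotein receptors VLDLR and LRP1 rose by 1.36 ± 0.16 and 0.79 ± 0.16 and EGFR by 0.74 ± 0.13, while LRP8 fell by 0.62 (SE 0.12).

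Coats of other routes were counted in the same way, in the comparison where 12.5% of all genes were called higher and 12.7% lower. Of 25 tested genes of the adaptor complexes AP1, AP3, AP4 and AP5 and the GGA adaptors, 3 fell, AP5M1 (-0.58), AP3B2 (-0.34) and GGA2 (-0.28), and GGA1 rose by 0.42. Of 20 genes of the COPI and COPII coats, which serve the Golgi and endoplasmic reticulum, SEC24B rose by 0.57, and 1 gene of very low level, COPZ2, named after its value was seen, fell. The median log2 fold changes were -0.05 and -0.06 for these lists, beside 0.00 over all genes. The medians were 0.26 for the dynamins and their partners and 0.25 for the receptors, and differences between lists were not tested. The lists together had 28 of 111 genes called, beside the 25.2% of all genes called at the high dose.

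In the other comparisons with DMSO the route was mostly uncalled. At the low dose TFRC, the transferrin receptor, was the only one of the 111 called, where 0.262% of all genes were called; it was higher by 0.42 on the log2 scale (adjusted p = 0.0178), from 142 to 190 CPM, and 6 had an unadjusted p under 0.05. In the combination LRP1 was the only one called by edgeR, rising from 20.7 ± 5.72 to 43.6 ± 7.89 CPM (1.06 ± 0.16, adjusted p = 1.56e-05), where 6.3% of all genes were called; 13 had an unadjusted p under 0.05, and DESeq2 called 3. With prexasertib none of the 111 was called by edgeR, DESeq2 or limma-voom, and 1 had an unadjusted p under 0.05.

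**Figure D4:**
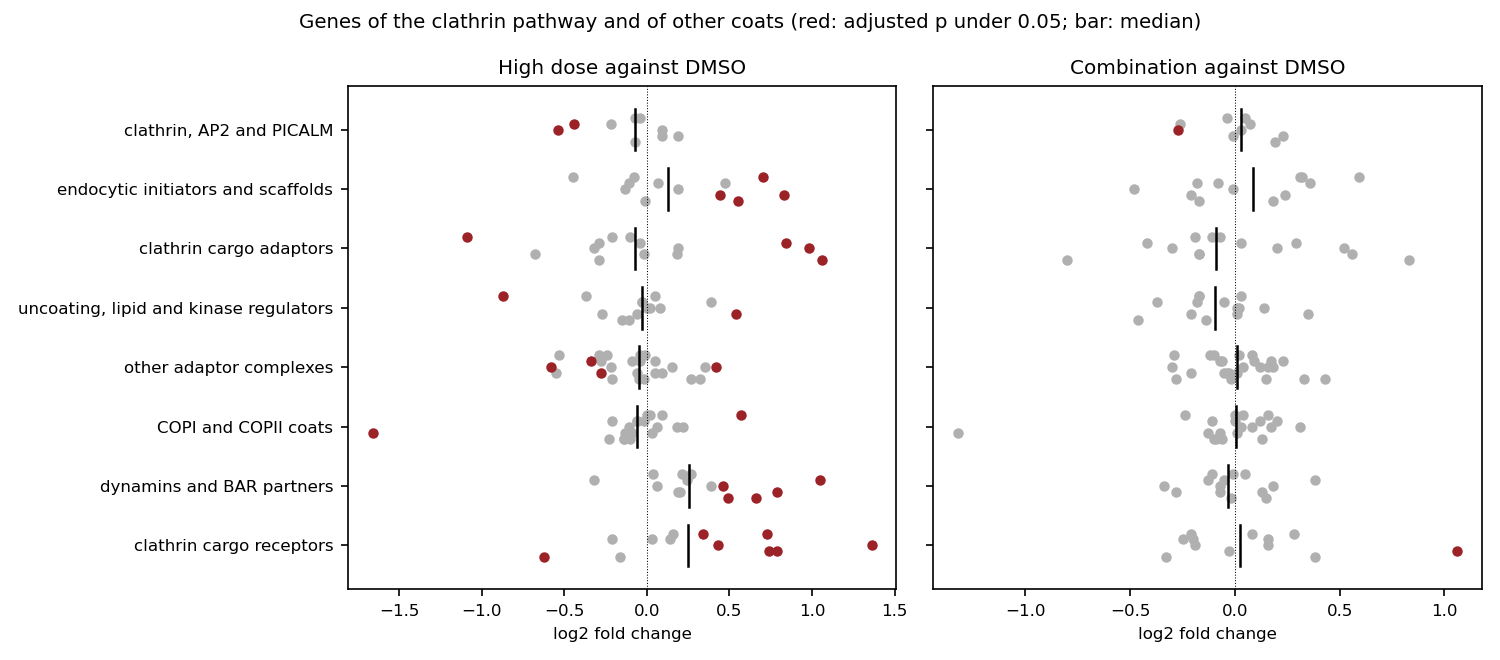
Log2 fold change against DMSO (horizontal axis) of each tested gene, 1 point a gene, for the coat genes and the 7 lists, at the high dose and in the combination. Red points have an adjusted p under 0.05 and black bars are list medians; at the high dose 21 of the listed genes are called higher and 7 lower, in the combination 1 higher, and points are spread vertically only for legibility.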

How the data were processed

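The deposited values are raw counts per gene and library, made by the authors from 3′ libraries of 20 samples; per the submitters' processing notes FastQC 0.11.7, STAR 2.7.2b, edgeR 3.36.0, limma 3.50.3 and GRCh38 were used. The annotation, counting, strand and barcode settings were not given in the sources used here. No column of the table was left out (20 of 20). Symbols were matched for 58434 of 58787 rows, and coordinates came from GENCODE, which held 58515.

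Counts were filtered with filterByExpr (minimum count 10, minimum total 15), scaled by TMM (0.968 to 1.03) and fitted with edgeR 4.0.16 in R 4.3.3 (robust quasi-likelihood, 1 term per group, 15 residual degrees of freedom). Two-sided p-values were adjusted (Benjamini-Hochberg) over 13729 genes in each of 9 comparisons, with a threshold of 0.05; ± beside a log2 fold change is the standard error. Comparisons with DMSO share its 4 libraries. Subunit ratios used a pseudocount of 0.5 and exact permutation tests. The edgeR fit was tried on simulated counts for the high dose against DMSO, with 200 changed genes. These counts had the same dispersion for all genes and no split of replicates, unlike the data. The permutation test was tried on a single simulated case. The outcomes are not given here. Chi-square per degree of freedom between libraries of a group was 3.01 to 8.46 over 30 pairs, so none was a copy of another in its group. Libraries of different groups were not compared in this way.

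The members and lists were chosen with earlier results of these data known. All 9 coat genes were named, of each list up to 4 called genes with the largest change and a mean log2 CPM of at least 3, and for each coat gene called against DMSO the 3 genes most correlated with it. MALAT1, the overlapping genes and TFRC were named after their values were seen.

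No source states that replicate numbers pair the libraries, and correlations between different numbers were not computed. Deviations from group means correlated over 0.1 for every same-numbered pair for the low dose (0.144 to 0.237), prexasertib, the high against the low dose (0.11 to 0.298) and the combination against prexasertib (0.115 to 0.23), the low and the high dose (0.172 to 0.319), but not for the high dose (lowest 0.0271) or the combination (lowest 0.0274) against DMSO or the interaction. Alternatives were other scalings, filters, DESeq2 1.42.0, limma-voom (limma 3.58.1), only the groups compared, a replicate block, the split of replicates 1 and 3 against 2 and 4, and leaving out each library. Promoter sequences came from RefSeq (GRCh38.p14), which held all 9 genes.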

Additional observations from a re-analysis of the deposited data

Results flagged for a closer look

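AP2M1 in high-dose replicate 1 measured 146 CPM, while the other high-dose libraries measured 137, 137 and 138 CPM; the gap to the nearest library was 0.883 of the range of the group. It was 1 of 45 groups of 4 libraries in which the highest or lowest library stood that far out, and chance alone flags about 1 in 20 such groups. Replicate 1 was still below the lowest DMSO library.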

How the results depend on the processing

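The fall of CLTC at the high dose held in 19 of 19 alternatives (log2 fold change -0.57 to -0.51, highest adjusted p 0.000764). No coat gene value that was called changed direction under any alternative run. The number of coat genes called at the high dose was 2, fell to 1 (CLTC) within replicates 1 and 3, and ran from 1 to 3 on leaving out a library; AP2M1 was the third, called under 7 of 19 alternatives, among them the replicate block (adjusted p = 0.0119), library sizes alone (0.0472) and DESeq2 (0.0267). For the combination against DMSO the count of 1 became 0 without a low-count filter, with a filter of 1 CPM in 4 libraries, within replicates 1 and 3, within replicates 2 and 4 and with only the groups compared, and ran from 0 to 1 on leaving out a library. For the high against the low dose the count of 1 became 0 without the filter and within either pair of replicates, and ran from 0 to 1 on leaving out a library. For the combination against the high dose the count of 2 became 0 without the filter, 1 within replicates 1 and 3 (CLTC) and 1 within replicates 2 and 4 (AP2M1), and ran from 1 to 2. The count rose from 0 to 1 (CLTC) for the low dose with DESeq2, the replicate block and a term for the split of replicates, and for the combination against prexasertib with these and with library sizes alone. With the replicate block 1976 genes in all were called in the combination against DMSO, against 865. Within replicates 1 and 3 that total was 911, and within replicates 2 and 4 it was 221. For the combination against the high dose the totals within these pairs were 1622 and 1554, against 2816. They were 2230 and 2221, against 3456, for the high dose against DMSO, and 1457 and 1588, against 2767, for the high against the low dose. The cause of these changes was not tested. No ratio test passed after adjustment under any alternative, which says nothing about stability, since the smallest exact p is 0.0286 without and 0.125 with the replicate block. AP2A1, with the fewest counts, had the widest intervals.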
